A study of Saccharomyces cerevisiae with 10 samples.

Results

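The wild type course consisted of 5 of the 10 arrays of a study of budding yeast (Saccharomyces cerevisiae) under hypo-osmotic shock, a shift of the cells to a medium of lower osmolarity. The arrays were those labelled wild type, with 1 array each at 7, 16, 30 and 60 min after the shift and 1 array at 0 min. The other 5 arrays, of a strain whose labels name a PPT1 deletion (PPT1 encodes a protein phosphatase), were not used here. Total RNA of each sample was measured in 1 channel of a 2-colour array, with a common label, reference, on the other channel. The labels name no strain background, medium or size of the shift, and do not say whether the 5 times came from 1 culture. Nor is there a wild type culture that was kept at the first osmolarity for the same times. A difference between arrays therefore has no replicate check, and no test was made; time in culture, handling and the shift itself cannot be told apart.

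Yeast in a medium of high osmolarity keeps its turgor by making glycerol, under control of the MAP kinase Hog1, and after a drop in osmolarity it lets glycerol out through the channel Fps1. A drop in osmolarity stretches the plasma membrane, and the cell wall sensors then signal through Pkc1 to the MAP kinase Slt2. Many stresses also act through the transcription factors Msn2 and Msn4, which switch on a broad set of protective genes and are held inactive in growing cells.

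Each value was a log ratio of the sample to the reference, taken as log2 and centred on the array's median, so that a difference of 1 between arrays is a 2-fold difference. The sources used here give neither the base of the logarithm nor the direction of the ratio. Sample over reference is likely, because the labels put the reference on the second channel, and were it the inverse, each higher would read as lower. A natural log was not excluded, and would make each difference larger in log2 units by 1 constant factor. The table held 5822 genes, of which 5122 had a value on all 5 arrays. Between 5440 genes (16 min) and 5807 genes (0 min) had a value on an array. The SD of the centred values across genes was 0.447, 0.439, 0.398 and 0.387 at 7, 16, 30 and 60 min, and 0.524 at 0 min, so the array that all later times were set against had the widest spread. On the 0 min array 2498 values had 4 decimals, and on each later wild type array 0 values did. PPT1 itself had ratios of -0.50, -0.21, 0.07, -0.16 and -0.44 at 0, 7, 16, 30 and 60 min.

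Most genes stayed close to their 0 min ratio, and the genes that left it were nearly all lower after the shift. At 7 min, 128 of 5661 genes (2.26%) were at least 1 lower than at 0 min and 6 (0.106%) at least 1 higher. The counts at 16 min were 210 lower (3.87% of 5425) and 18 higher (0.332%). They were 177 lower (3.15% of 5612) and 25 higher (0.445%) at 30 min, and 175 lower (3.03% of 5785) and 27 higher (0.467%) at 60 min. The median difference of all genes lay between -0.02 and -0.01 at every time. In all, 388 of 5807 genes (6.68%) were at least 1 away from 0 min at some time. The surplus of lower genes depended on the scaling in size and not in direction: when the 5 arrays were forced to the same distribution (quantile normalization), 63, 105, 110 and 104 genes were lower and 15, 27, 47 and 60 higher at 7, 16, 30 and 60 min.

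Steps of at least 1 between neighbouring arrays were most numerous in the first interval, the only one of the 4 that uses the 0 min array. A gene is said to move up or down where its ratio was higher or lower on the later array, which is a reading of 2 arrays and no test. Between 0 and 7 min, 128 genes took a step of at least 1 downwards, as above. Between 7 and 16 min 47 genes (0.883% of 5324) did so and 8 genes (0.15%) took such a step upwards. From 16 to 30 min 12 genes (0.228% of 5264) moved down and 18 (0.342%) up by at least 1, and from 30 to 60 min 14 genes (0.25% of 5605) moved down and 7 (0.125%) up. The interval from 16 to 30 min was thus the only one of the 4 with more such steps up than down. The 0 min array had the widest spread, so the count of the first interval rests on it. Under quantile normalization that count was 63 down and 15 up. Later steps over the whole array were not counted under another scaling.

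**Figure D1:**
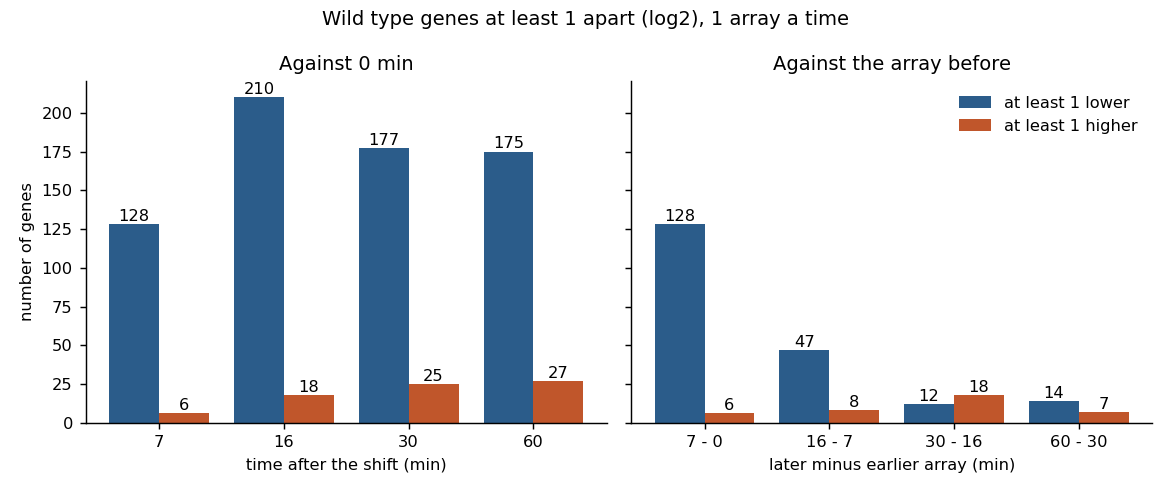
Number of wild type genes at least 1 (log2) lower or higher than at 0 min at each time (left) and than on the array before (right), with 1 array a time. Lower genes outnumbered higher ones in each comparison except the step from 16 to 30 min, where 12 moved down and 18 up.

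Of the 5747 genes with a 0 min value and at least 3 later values, 116 (2.02%) were at least 1 lower than at 0 min at 3 or more of the 4 later times, and 5 (0.087%) at least 1 higher. These are called sustained below. The 4 differences of a gene share its 0 min value, so a deviating 0 min value alone could carry a gene over the limit at every time. Among the 116 lower genes, 51 were past the limit at all 4 times and 49 at 16, 30 and 60 min but not at 7 min. The remaining patterns were 7, 16 and 60 min in 9 genes, 7, 16 and 30 min in 4 genes, and 7, 30 and 60 min in 3 genes. Just inside the limit lay ITR1, a myo-inositol transporter gene with a third-largest difference of -1.01, and BNA1, of NAD synthesis, with -1.02. Just outside lay NCE103, the carbonic anhydrase gene, with -0.99, and CIT2, the peroxisomal citrate synthase gene, also with -0.99.

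The sustained lower genes were, in most cases, genes that had stood above the reference before the shift and came close to it afterwards. The rule subtracts the 0 min value and so favours genes with a high 0 min ratio. The values below therefore describe the group and are no separate result. Their median ratio was -0.08 at 60 min, against 1.65 at 0 min. At 60 min 77 of the 115 with a value lay within 0.5 of the reference and 11 lay at or below -1; at 0 min 95 of the 116 had a ratio of at least 1. Over the whole array 286 genes had a 0 min ratio of at least 1, and 95 of them (33.2%) were in the sustained lower group. Of those 286 genes, 285 had a 60 min value, and 36 of these still had a ratio of at least 1 then. In the plot of 60 min against 0 min the group forms a band at the level of the reference, to the right of the diagonal.

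**Figure D2:**
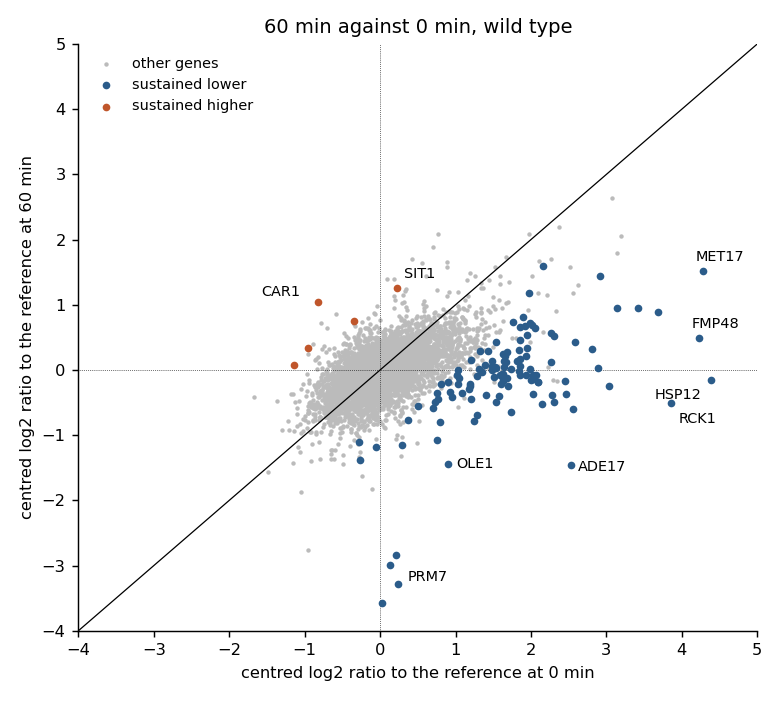
Centred log2 ratio to the reference at 60 min (vertical) and 0 min (horizontal) for each wild type gene, 1 point a gene, with the line of equal values. Of the 116 sustained lower genes, the 115 with a 60 min value lie below the line, 77 of them within 0.5 of the reference at 60 min. The 5 sustained higher genes lie above it. The rule that chose both groups nearly fixes their side of the line.

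The speed of descent differed widely among them. In the 106 sustained lower genes with all 5 values, the median gene had covered 56.7% of its largest difference at 7 min. There were 29 genes with at least 75% of it at 7 min and 21 genes with under 25%. By time of largest difference, 8 genes belonged to 7 min, 18 to 16 min, 39 to 30 min and 41 to 60 min. Since the rule asks for 3 of 4 times, most of these genes had to be past the limit at 60 min, so how few returned is no result. At 60 min 89 of the 106 held at least 75% of their largest difference, and 2 held under 50%, GPD1 with 45.0% and YGR035C with 45.8%.

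Fast genes had most of their difference by the first array. CMK2, a calmodulin-dependent protein kinase gene, had ratios of 2.81, 0.69, 0.33, 0.15 and 0.32 at 0, 7, 16, 30 and 60 min. RSB1, a sphingoid base transporter gene, had 2.07, -0.35, -0.18, -0.74 and -0.07. CHS1, a chitin synthase gene, had 1.63, 0.14, -0.03, 0.02 and -0.07. In each of these genes the 0 min array stood alone and the 4 later arrays lay close together. MET17, the sulfhydrylase that makes homocysteine, had 4.28, 1.16 and 0.98 at 0, 7 and 16 min and 1.52 at 60 min, with no 30 min value. LEU2, of leucine synthesis, had 2.28, -0.45, -0.28 and -0.39 at 0, 7, 30 and 60 min, with no 16 min value. ARG1, the argininosuccinate synthetase gene, had differences from 0 min of -2.02, -2.89, -2.47 and -2.15. For MET17 and LEU2, too, the 7 min array already lay with the later ones.

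Slow genes had covered a small share of their largest difference at 7 min. RCK1, a stress-related protein kinase gene, had ratios of 3.86, 2.88, 1.01, -0.41 and -0.51, and its difference of -4.37 at 60 min was among the 5 lowest at that time. HSP12, a membrane-protecting stress protein gene and the highest of these genes before the shift, had 4.39, 3.52, 2.21, 1.76 and -0.15. FMP48, which encodes a protein of mitochondria with a kinase domain, had 4.23, 4.48, 2.69, 1.15 and 0.49. These 3 genes were still going down after 16 min, when few genes of the array moved by 1. RCK1 did so mainly up to 30 min, with a step of -0.10 from 30 to 60 min. HSP12 took a step of -1.91 from 30 to 60 min alone.

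A smaller set started near the reference, and part of it went far below. At 0 min 9 of the 116 had a ratio under 0.5 in size. Of these, STP4, YDR274C, ADE12, BRP1 and TYE7 had ratios between -1.38 and -0.76 at 60 min. The others went further and follow here. PRM7, a pheromone-regulated membrane protein gene, had ratios of 0.24, -0.99, -1.74, -2.79 and -3.28. Its neighbour YDL038C had 0.03, -1.35, -2.15, -3.19 and -3.58, and BSC1, next to that, had 0.21, -0.73, -1.74, -2.22 and -2.84. The 3 reading frames lie side by side, and their array signals may not be independent. Each was lower on every later array than on the one before. YOR338W, of no assigned role here, followed a course of 0.14, -1.77, -2.21, -2.12 and -2.99, with most of the distance covered by 7 min. In all, 17 of the 116 genes lay in 9 pairs of neighbouring sustained genes, among them YPS1 and YPS3 (cell surface proteases), GRE2 and YOL150C, and ARG1 and GPD2. The largest gap between the differences of a pair was 0.32 for GRE2 and YOL150C and 1.81 for ARG1 and GPD2. How many such pairs other gene sets would hold was not counted, and shared array signal was not tested.

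OLE1, the fatty acid desaturase gene, came part of the way back after 16 min, with ratios of 0.90, -0.93, -3.26, -2.68 and -1.45. Its difference from 0 min was -4.16 at 16 min and -2.35 at 60 min. YGR035C likewise had 1.52, 0.17, -1.69, -0.99 and 0.05, so that it was lowest at 16 min and back at the level of the reference, though not at its own 0 min ratio, by 60 min.

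**Figure D3:**
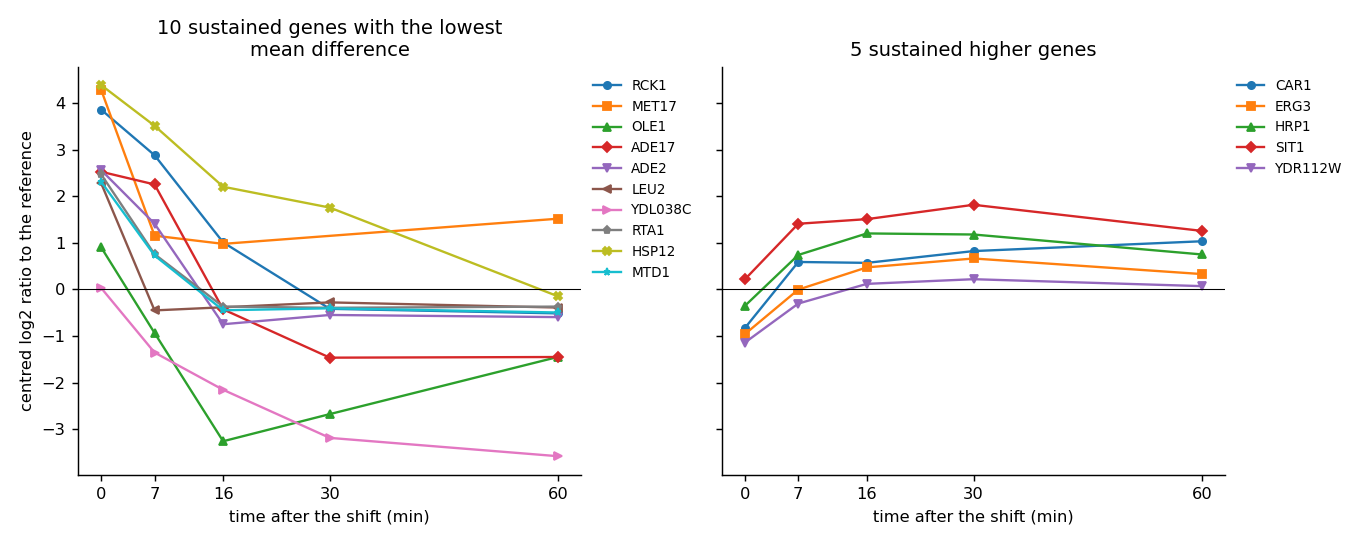
Centred log2 ratio to the reference against time for the 10 sustained genes with the lowest mean difference from 0 min (left) and the 5 sustained higher genes (right), 1 array a time, with a line joined across a missing value. The left-hand courses differ in speed, from LEU2 at -0.45 by 7 min to HSP12 at -0.15 only by 60 min, while the right-hand ones were all higher at 7 min than at 0 min.

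The 5 sustained higher genes differ in what they encode. CAR1, the arginase gene, had the largest mean difference, with ratios of -0.83, 0.59, 0.57, 0.82 and 1.04. ERG3, a sterol desaturase gene, had -0.96, 0.00, 0.47, 0.67 and 0.33. HRP1, an RNA cleavage factor gene, had -0.35, 0.74, 1.20, 1.18 and 0.75. All of these crossed from below the reference to at or above it. SIT1, a siderophore iron transporter gene, had 0.22, 1.41, 1.51, 1.82 and 1.26, and YDR112W, an unnamed reading frame, had -1.14, -0.30, 0.12, 0.22 and 0.07. CLB6, an S-phase cyclin gene, lay just outside the limit with a third-largest difference of 0.96.

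The glycerol synthesis genes were lower throughout. GPD1, the glycerol 3-phosphate dehydrogenase gene that answers to osmotic stress, had ratios of 2.16, 1.09, 0.96, 0.91 and 1.60, and its differences from 0 min were -1.07, -1.20, -1.25 and -0.56. GPP2, the phosphatase of the next step, had 2.09, 1.08, 0.13, -0.14 and -0.19, with a difference of -2.28 at 60 min. GPD1 was thus part of the way back at 60 min and GPP2 was not. The paralogs GPD2 and GPP1 had smaller differences, at most -1.14 and -1.10, both at 30 min. At 7, 16, 30 and 60 min 2.26, 3.87, 3.15 and 3.03% of all genes were at least 1 lower. Counts of members at least 1 lower were 2, 3, 4 and 2 of 4 at these times. These calls rest on the scaling: under quantile normalization and under scaling by the median absolute deviation the counts were 0, 1, 2 and 1. Under quantile normalization the 30 min differences of GPD1 and GPD2 were -0.40 and -0.63.

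No gene of the HOG signalling list or the channel list was past the limit, whereas SLT2 and RLM1 of the cell wall cascade, given below, were. None of the 16 measured HOG pathway signalling genes and none of the 5 genes of water and glycerol channels and transporters was 1 away from 0 min at any time, where 6.68% of all genes were at some time, so these counts of 0 set neither group apart. In the second group the largest difference was -0.66, of the aquaporin gene AQY1 at 30 min. Of all genes 2.26, 3.87, 3.15 and 3.03% were at least 1 lower at 7, 16, 30 and 60 min. Among 12 genes that Hog1 induces in media of high osmolarity, 0, 5, 4 and 4 were, with medians of -0.61, -0.82, -0.79 and -0.78. Under quantile normalization the medians were -0.35, -0.40, -0.55 and -0.53, and 0, 5, 3 and 2 genes were at least 1 lower. GRE2, a methylglyoxal reductase gene, had 1.94, 1.38, 0.25, 0.03 and 0.34, and NQM1, a transaldolase gene, had 1.59, 0.64, -0.10, -0.18 and -0.07.

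The general stress genes of Msn2 and Msn4 were lower from the first later array on. All 22 measured at 7 min were below their 0 min ratio, with a median difference of -0.71, whereas 2865 of 5661 genes of the array were below theirs. Counts at least 1 lower were 6, 11, 8 and 9 of up to 23 genes, beside 2.26, 3.87, 3.15 and 3.03% of all genes. From 16 to 30 min 13 of 19 members with both values moved up, and from 30 to 60 min 14 of 22 moved down. SPI1, a cell wall protein gene, went steadily down with 3.68, 2.58, 2.43, 1.75 and 0.90, while TFS1, an inhibitor of carboxypeptidase Y, was lowest at 16 min with 1.99, 0.66, -0.03, 0.80 and 0.72. The exception in direction was TMA10, a ribosome-associated protein gene, at 0.70, 0.61, 0.86, 1.76 and 1.88, which was 1.18 higher at 60 min. With each array scaled by its median absolute deviation 3, 7, 3 and 5 members were at least 1 lower. Under quantile normalization 1, 5, 2 and 4 were, with medians between -0.37 and -0.27.

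Some storage carbohydrate genes had their lowest ratio at 7 min. GSY2, the main glycogen synthase gene, had 1.67, 0.08, 0.99, 1.48 and 1.02, and TSL1, a subunit of trehalose synthase, had 3.08, 1.77, 2.64, 2.57 and 2.64. Both were at their lowest on the 7 min array and at least 0.87 higher by 16 min. Other members of the list did not share this course. TPS2 had 2.22, 1.31, 1.46, 1.08 and 1.16, lowest at 30 min. PGM2 had 1.43, 0.42, 0.32, 1.32 and 0.92, lowest at 16 min. Of the 16 trehalose and glycogen genes, 3, 1, 1 and 1 were at least 1 lower at the 4 times. Of all genes 2.26, 3.87, 3.15 and 3.03% were, so the counts of 1 do not set the list apart. The list's medians at 30 and 60 min were -0.15 and -0.14. These 2 medians changed sign, to 0.07 and 0.01 with each array scaled by its median absolute deviation and to 0.32 and 0.19 under quantile normalization, where TSL1 was at -0.42 from 0 min at 7 min. CIT2 had the deepest dip among genes that returned, with 1.59, -0.56, -0.02, 0.61 and 1.44. Of the 261 genes with all values that were at least 1 lower at 7, 16 or 30 min, 130 were still at least 1 lower at 60 min. Another 47 were then less than 0.5 below their 0 min ratio or above it, among them BTN2 at 1.22 above.

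The cell wall genes differed in timing. Of 23 genes induced through Slt2 and its transcription factor Rlm1, 4, 6, 6 and 10 were at least 1 lower at 7, 16, 30 and 60 min, with medians of -0.24, -0.26, -0.55 and -0.86. The shares of all genes at least 1 lower were 2.26, 3.87, 3.15 and 3.03%. NCW2, a cell wall protein gene, was early, with ratios of 2.88, 0.88, 0.77, 0.23 and 0.03. CWP1, a mannoprotein gene, had 3.20, 3.19, 3.13, 2.59 and 2.06 with differences from 0 min of -0.06 at 16 min and -1.14 at 60 min. CRH1, which crosslinks chitin to glucan, had 1.18, 0.97, 1.29, 1.10 and 0.12, and HSP150 had 1.07, 1.17, 1.25, 0.57 and 0.21. In the step from 30 to 60 min 19 of 22 members moved down, as did 2738 of 5605 genes of the array. Quantile normalization left 1, 4, 2 and 7 members at least 1 lower and turned the 16 min median to 0.30. The kinase and the factor themselves were lower too: SLT2 had 2.22, 1.37, 0.49 and 0.04 at 0, 7, 16 and 60 min with no 30 min value, and RLM1 had 1.19, 0.38, -0.23, -0.27 and -0.22.

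Targets of the calcium-activated phosphatase calcineurin and its factor Crz1 differed from 0 min from the first later array on. All 10 were below their 0 min ratio at 7 min. At each of the 4 times 4 were at least 1 lower, where 2.26 to 3.87% of all genes were. The 4 were CMK2, YPS1, PHO89 (a sodium and phosphate transporter gene) and GYP7 (a GTPase-activating protein gene). Their list's median was -0.58, -0.59, -0.59 and -0.65. PHO89 had a second step of -1.16 from 7 to 16 min, and no other member took a step of 1 after 7 min. Under quantile normalization 2, 3, 3 and 3 of them were past the limit.

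The purine and one-carbon genes had the lowest median of the 33 lists at 30 and 60 min, and most of the distance lay between 7 and 16 min. Their median difference was -0.19 at 7 min and -1.14, -1.61 and -1.72 at 16, 30 and 60 min. Counts at least 1 lower were 2, 10, 10 and 10 of 16 genes, beside 2.26, 3.87, 3.15 and 3.03% of all genes. From 7 to 16 min 9 of the 16 stepped down by at least 1, against 47 of 5324 genes of the array. The 10 sustained members, all with 5 values, had a median of 12.4% of their largest difference at 7 min. Of the other lists with at least 3 such genes, the 4 calcineurin targets had 84.5% and the 5 cell wall targets 82.2%. The 3 glycerol synthesis genes had 44.4%, the 6 general stress genes 38.7% and the 3 genes induced by Hog1 29.5%.

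ADE17, which acts in the last steps of purine synthesis, had ratios of 2.53, 2.26, -0.43, -1.46 and -1.45, with a difference of -3.98 at 60 min. SHM2, the cytosolic serine hydroxymethyltransferase gene, had 2.45, 2.10, 0.33, -0.45 and -0.17, and GCV1, of the glycine cleavage complex, had 2.26, 1.88, -0.13, -0.30 and 0.13. ADE1 and ADE13 were a little above their 0 min ratio at 7 min, by 0.21 and 0.04, and their differences at 60 min were -2.03 and -1.97. The exceptions in timing were ADE2, with a difference of -1.15 at 7 min, and MTD1, a methylenetetrahydrofolate dehydrogenase gene, with -1.58. Because the step fell after 7 min, it can be read without the 0 min array: 15 of 16 members were lower at 30 than at 7 min, with a median of -1.21, under the main scaling and in the same number under the 3 others. At 7 min itself the median turned to 0.18 under quantile normalization.

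Sulfate and methionine genes were mixed in timing. Of 19 genes, 2, 5, 3 and 8 were at least 1 lower, with medians of -0.54, -0.70, -0.65 and -0.91. Over the whole array 2.26, 3.87, 3.15 and 3.03% of genes were at least 1 lower at these times. Under quantile normalization 2, 3, 1 and 4 of the sulfate and methionine genes were. SUL1, a sulfate permease gene, was early, with 0.72, -0.47, -0.19, -0.16 and -0.23. MET6, the methionine synthase gene, was late, with 2.02, 2.03, 0.18, 0.58 and -0.08, and SAM2, an S-adenosylmethionine synthetase gene, later still, with 1.56, 1.85, 0.85, 0.32 and 0.06. Of 36 amino acid synthesis genes under the factor Gcn4, 3, 4, 3 and 5 were at least 1 lower, ARG1, LEU2 and ARG3 among them. The medians of this list were -0.20, -0.23, -0.41 and -0.34, beside the same shares of the whole array. Under quantile normalization 3, 2, 2 and 4 of its genes were at least 1 lower.

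**Figure D4:**
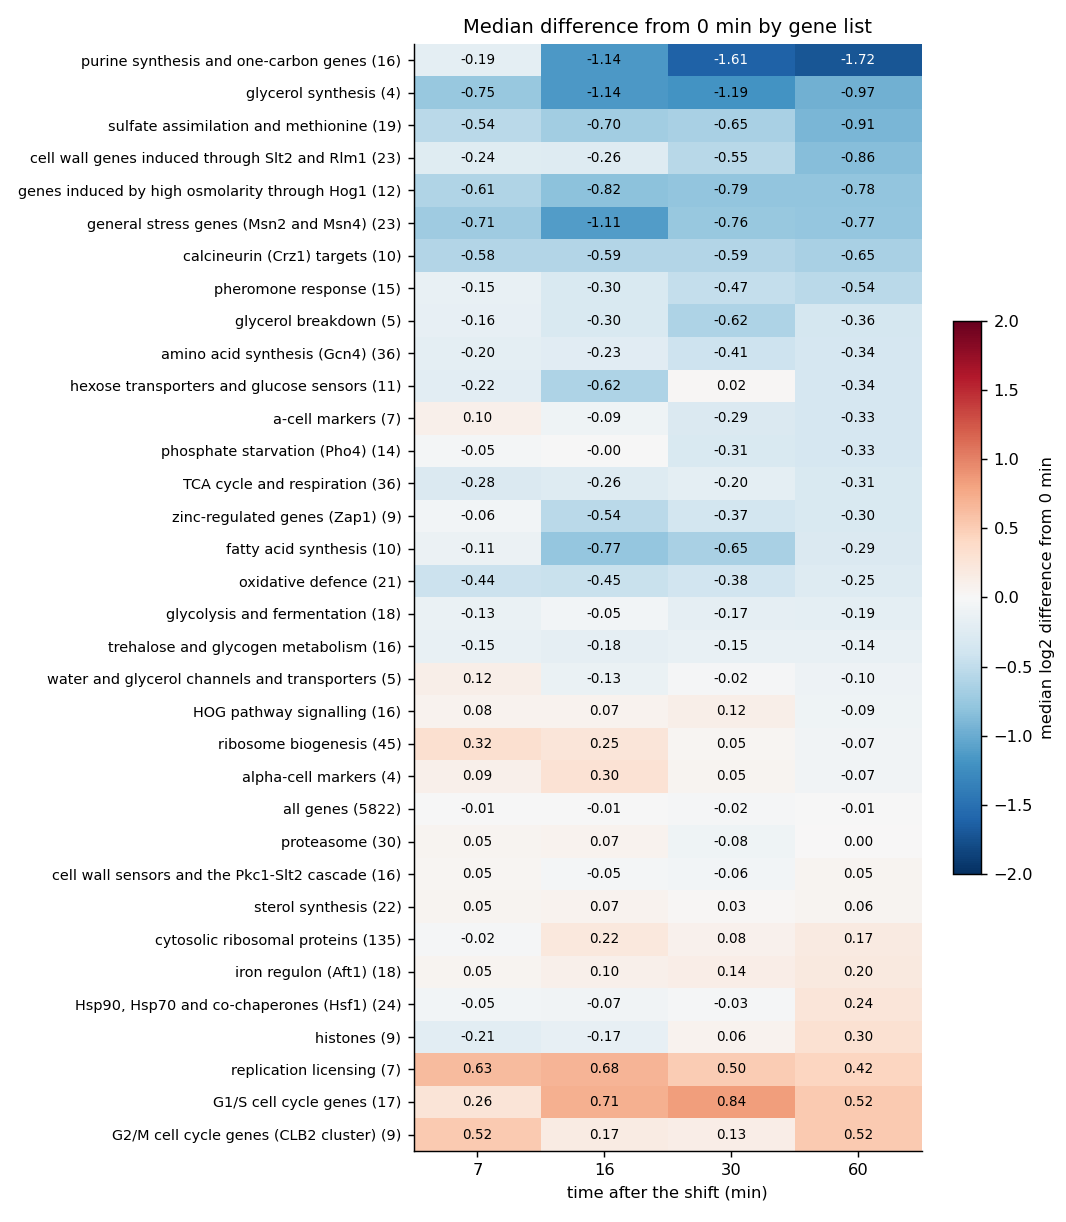
Median log2 difference from 0 min at 7, 16, 30 and 60 min (columns) for each gene list (down the page, with the number of members measured), printed in each cell and shown by colour, beside all 5822 genes. Purine and one-carbon genes reach -1.72 at 60 min, and the G1/S genes 0.84 at 30 min.

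Cell cycle genes moved the other way and in turn. The CLB2 cluster, expressed at G2 and mitosis, was highest at 7 min and again at 60 min, with a median difference of 0.52 at both, and 0.17 and 0.13 between. The G1/S genes, expressed at the start of the cycle, had medians of 0.26, 0.71, 0.84 and 0.52. Between 7 and 30 min 17 of 17 G1/S genes moved up and 9 of 9 CLB2 cluster genes moved down, under each of the 4 scalings. From 30 to 60 min 14 of the 17 moved down and 9 of the 9 up. Neither statement uses the 0 min array, and of all genes 2660 of 5491 moved up between 7 and 30 min.

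CDC5, the polo kinase gene, had ratios of -0.96, 0.30, -0.14, -0.20 and 0.24, and CLB2, the main mitotic cyclin gene, had -0.89, 0.01, -0.43, -0.31 and 0.41. RNR1, of the ribonucleotide reductase, had -0.42, -0.02, 0.78, 0.91 and 0.22, POL30, the sliding clamp gene, had -0.56, -0.42, 0.15, 0.90 and 0.12, and CLB6 had -0.17, 0.60, 1.44, 0.97 and 0.79. The mitotic genes thus dipped where the S-phase genes peaked. Few passed the limit: 0, 3, 5 and 2 of the 17 G1/S genes and 1, 0, 0 and 2 of the 9 CLB2 cluster genes were at least 1 higher. Of all genes 0.106, 0.332, 0.445 and 0.467% were at least 1 higher at 7, 16, 30 and 60 min. All 7 replication licensing genes were above their 0 min ratio at 7 min, with a median of 0.63, and none reached 1. The 9 histone genes had medians of -0.21, -0.17, 0.06 and 0.30.

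Chaperone genes were higher at the last step. Of 24 genes of Hsp90, Hsp70 and their partners, 19 were higher at 60 than at 30 min, 4 lower and 1 equal, with a median step of 0.26; under each other scaling 20 were higher. In the 3 intervals before, 10 of 24, 9 of 23 and 9 of 23 had moved up. SIS1, a J-domain co-chaperone gene, had ratios of 0.77, 0.94, 1.08, 1.14 and 2.08, STI1, an Hsp90 co-chaperone gene, had 0.89, 0.67, 0.85, 1.24 and 1.66, and HSP82 had 0.19, 0.16, 0.20, 0.42 and 0.94. Of the 24, SIS1 alone was at least 1 higher than at 0 min at 60 min, where 0.467% of all genes were. HSP26 ran the other way, with 1.63, 0.95, 0.27, -0.10 and -0.16. BTN2, which sorts misfolded proteins, was at least 1 lower at 16 min and at least 1 higher at 60 min, with 0.18, -0.66, -1.11, 0.53 and 1.40.

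**Figure D5:**
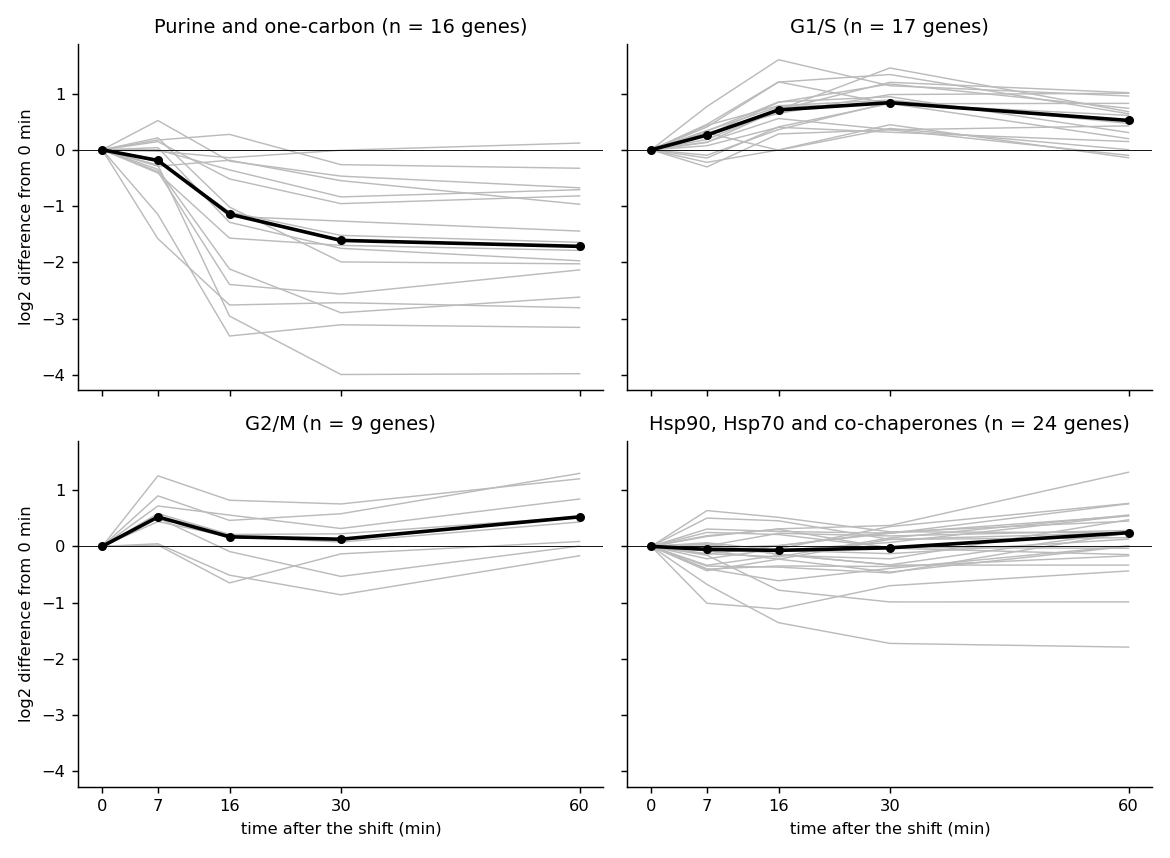
Log2 difference from 0 min against time for the members of 4 gene lists (grey lines, 1 a gene) with their median (black), set to 0 at 0 min, 1 array a time. The purine and one-carbon median drops between 7 and 16 min, the G1/S and G2/M medians move in opposite directions between 7 and 30 min, and the chaperone median moves up between 30 and 60 min.

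The 10 fatty acid synthesis genes had medians of -0.11, -0.77, -0.65 and -0.29, and 1, 2, 3 and 1 were at least 1 lower. Of all genes 2.26, 3.87, 3.15 and 3.03% were, so the counts of 1 do not set the list apart. From 7 to 16 min 7 of 10 moved down, and from 30 to 60 min 8 of 9 moved up, with a median step of 0.44. FAS2, a fatty acid synthase subunit, had 0.59, 0.73, -0.33, -0.63 and -0.19, with its lowest value, like that of ACC1, at 30 min. At the 4 times 0.106, 0.332, 0.445 and 0.467% of all genes were at least 1 higher. Among up to 18 iron regulon genes 1, 1, 2 and 3 were at least 1 higher, namely SIT1, FET3 (a ferroxidase gene, with 0.09, 0.46, 0.83, 1.46 and 1.40) and FRE1 (a ferric reductase gene, with -0.79, -0.25, 0.02, 0.15 and 0.71). HMX1, the heme oxygenase gene, was the 1 member past the limit in the other direction, at -1.21 at 7 min, and 14 members had a 16 min difference. ZRT1, the high-affinity zinc transporter gene, had 0.80, 0.74, -0.58, -0.80 and -0.80. MDH2, the cytosolic malate dehydrogenase gene, was at least 1 higher at 7 min and at least 1 lower at 60 min, with 0.30, 1.48, 1.20, 0.10 and -0.80.

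Few genes of growth were past the limit, as was so of the array as a whole. None of the 135 cytosolic ribosomal protein genes was 1 away from 0 min at any time, with medians of -0.02, 0.22, 0.08 and 0.17. In the step from 7 to 16 min 123 of 134 moved up by small amounts, with a median of 0.21, as did 2667 of 5324 genes of the array. Of 45 ribosome biogenesis genes 39 were above their 0 min ratio at 7 min, with a median of 0.32, and 41 moved down from 30 to 60 min; NSR1, a nucleolar protein gene, was the 1 member past the limit, at -1.32 at 60 min. None of the 30 proteasome genes and none of the 18 glycolysis and fermentation genes was past the limit. The markers of mating type, 7 of a cells and 4 of alpha cells, were all within 1 of 0 min as well, and since values are ratios to a reference they do not show which type the cells were.

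Of the 116 sustained lower genes, 76 were in none of the 33 lists. A few examples follow, picked out after their values were seen, and they say nothing of how other genes of their kind behaved. TPO1, TPO2 and TPO4, polyamine exporter genes, had ratios of 0.86, 0.54 and 1.05 at 16 min, against 1.95, 2.58 and 3.21 at 0 min. PDR15 and YOR1, drug exporter genes, had -0.12 and -0.01 at 60 min, against 1.68 and 1.48 at 0 min. TPO4 had no 60 min value. The inositol and choline genes ITR1, HNM1, CHO1 and CKI1 were also sustained, with differences of -1.37, -1.73, -1.39 and -1.13 at 60 min. At 7 min CKI1 was already at -1.18 and CHO1 at -0.20. RTA1, a membrane protein gene, had 2.47, 0.76, -0.37, -0.39 and -0.37.

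Single-time peaks were few and each rests on 1 array. They were genes at least 1 away from 0 min at exactly 1 time and less than 0.5 away in that direction at the other 3. Of the 5122 genes with all values, 20 (0.39%) had such a low point and 3 (0.0586%) such a high point. The 7 min array held 4 of the low points, the 16 min array 10, the 30 min array 2 and the 60 min array 4. The 16 min array, with the most low points, was also the one with the most missing values, 382, and the part of array quality in these points was not tested. HRB1, an mRNA-binding protein gene, had -0.16, -2.07, -0.15, -0.07 and 0.02, and OSH2, an oxysterol-binding protein gene, had 0.27, -1.35, 0.42, 0.13 and 0.25. FAA4, a fatty acid activation gene, had -0.66, -0.99, -2.37, -0.98 and -0.40, and GAP1, the general amino acid permease gene, had 0.80, 0.67, -0.45, 0.35 and 0.68. At 30 min the low points were HXT5 (-1.19 from 0 min) and COM2 (-1.01). EAF1, of a histone acetyltransferase complex, had its low point of -1.59 from 0 min at 60 min, as did RIB4, MAE1 and CRH1 with smaller differences. The 3 high points were SAP4 at 30 min and SIS1 and YNL285W at 60 min, at 1.23, 1.32 and 1.44 above 0 min.

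The course was also read without the 0 min array, by setting 16, 30 and 60 min against 7 min. At least 1 lower at 2 or more of these 3 times were 45 genes. Of these, 37 were among the 116, which made up 2.02% of 5747 genes. Both readings share the 16, 30 and 60 min arrays, so the overlap is no independent check. They included FMP48, ADE17, HSP12, RCK1, SHM2, ADE1 and PRM7. In the other direction 13 genes were at least 1 higher than at 7 min at 2 or more times, and 0 of the 5 sustained higher genes were among them. Each of these 45 genes is set against the single 7 min array, so a deviating 7 min value alone could carry a gene in. The fast genes and the 5 higher genes rest in the same way on the single 0 min array.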

How the data were processed

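Each of the 5 wild type samples was measured on 1 2-colour array with a reference on the second channel, per the labels. The authors deposited 1 table of log ratios per gene and array, taken here as log2; its base, the dyes, the platform, the background correction and the normalization were not given in the sources used here. Depth has no counterpart in these values, and the number of arrays limits the precision. RefSeq's gene table (assembly R64) gave a symbol to 4895 of the 5822 systematic names.

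Each array was centred on its median and the 0 min array was subtracted (python 3.11.15, pandas 2.3.3, numpy 2.4.6). No test, SD or p-value was computed, since each time has 1 array. The counting steps were tested on simulated data. The members and gene lists were chosen with earlier results of these data known. Named genes were the 5 highest and 5 lowest against 0 min at each time, the 10 sustained genes with the largest mean difference in each direction, the 3 most distant single-time peaks at each time and in each direction, up to 4 members past the limit in each list, the 3 largest steps in each interval and direction, genes past the limit in both directions, and glycerol and channel genes. Other genes were named as examples of timing or for their role, after their values were seen.

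Alternatives were no centring, scaling by the median absolute deviation, quantile normalization (limma 3.58.1 in R 4.3.3), other limits, genes with all 5 values, leaving out each later array, and 7 min in place of 0 min. A planned description of promoter motifs was not made, because no sequences were used here.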

Additional observations from a re-analysis of the deposited data

How the results depend on the processing

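Without centring and with scaling by the median absolute deviation, each count over the whole array stayed within 1.5 times its main value. Counts within gene lists moved further: scaling by the median absolute deviation moved 25 of them, in 12 lists, by over 1.5 times, no centring 8 in 7 lists and quantile normalization 48 in 22 lists. At 7, 16, 30 and 60 min that scaling gave 0, 1, 2 and 1 lower glycerol synthesis genes (2, 3, 4 and 2 in the main setting) and 3, 7, 3 and 5 lower general stress genes (6, 11, 8 and 9), and without centring 1 glycerol synthesis gene was lower at 7 min. Quantile normalization gave 78 genes at least 1 from 0 min at 7 min (134 in the main setting) and 132 at 16 min (228). It gave 52 sustained lower genes, of which 51 were among the 116, and 13 sustained higher genes in place of 5. The lower share of genes past the limit was then 80.8, 79.5, 70.1 and 63.4% at 7, 16, 30 and 60 min, against 95.5, 92.1, 87.6 and 86.6%. A limit of 0.6 gave 491, 701, 646 and 674 genes at the 4 times, 303 sustained lower and 50 higher genes and 362 single-time peaks. A limit of 1.5 gave 36, 74, 77 and 81 genes, 46 sustained lower and 0 higher genes and 4 peaks. Requiring all 4 times left 51 lower and 3 higher genes. Leaving out 1 later array and requiring the other 3 left 54 to 100 lower genes (100 without 7 min, 54 without 16 min, 60 without 30 min, 55 without 60 min) and 3 to 5 higher genes (5 without 7 min, 3 without any other). Against 7 min, 45 lower and 13 higher genes were found. A limit of under 1 at the other times gave 147 peaks in place of 23, and of the 23 peaks 14 were shared with quantile normalization. Of 106 named genes, 16 were no longer past 1 at their most distant time under quantile normalization, 8 under scaling by the median absolute deviation and 5 without centring; none turned its sign under these 3. Among lists, quantile normalization also turned the sign of small medians, such as those of the chaperones at 7, 16 and 30 min and of glycolysis at every time. The causes of these shifts were not tested. No paired analysis was possible because each time has 1 array. The missing values, the 1 array a time and the unknown base of the logarithm limit every count.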
